A study of Sus scrofa with 4 samples.

Results

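The MYC and MAX network is a set of basic helix-loop-helix leucine zipper transcription factors, and 10 of its genes were examined in porcine 4-cell embryos. They are MYC, MYCN, MYCL, MAX, MXD1, MXD3, MXI1, MNT, MLX and MGA, each found as the single row of the deposited table whose gene name equals that symbol, 10 of 35248 rows in all. The embryos were parthenogenetic, that is, they developed from oocytes activated by an electric pulse with no sperm and so carry no paternal genome. Of the 4 RNA libraries, 2 came from embryos treated with 50 µM Bobcat339, a cytosine derivative that inhibits TET dioxygenases, enzymes that oxidise 5-methylcytosine in DNA. The other 2 were controls that received DMSO, for which the labels also give 50 µM. All 4 shared the electric activation, 3 h in cytochalasin B at 7.5 µg/mL and 48 h of culture in PZM-3 medium with bovine serum albumin. The number of embryos in each library and whether the replicates were separate cultures are not stated, so each p-value refers to the variation among these 4 libraries, and that variation may be technical.

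MYC, MYCN and MYCL bind DNA at E-box sequences only as dimers with MAX, and these dimers raise transcription of genes for growth, ribosome production and metabolism. MXD1, MXD3, MXI1 and MNT compete for the same partner and recruit SIN3 and histone deacetylases to repress E-box genes, while MGA, which also carries a T-box domain, pairs with MAX inside a Polycomb repressive complex. MLX is a MAX-like partner for the glucose-responsive factors MLXIP and MLXIPL and can also dimerise with MXD1 and MNT. In mouse embryos MYC is among the transcription factors linked to the start of embryonic transcription, and Max is required for early development after implantation.

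Sequencing depth was even, at 14681221 and 13568525 counts for Bobcat339 and 14390560 and 13852262 for control, so that 3 counts, the limit that a count of 0 allows, correspond to 0.204 to 0.221 CPM (counts scaled to library size; counting error only). Of the 12 oocyte and embryo markers listed 10 were matched, with mean levels from 0.831 CPM for ZAR1, an oocyte RNA-binding protein that was near absent here, to 4279 CPM for the oocyte growth factor BMP15 (median 666 CPM). The markers of cumulus and granulosa cells summed over 12 matched genes to 108 and 148 CPM after Bobcat339, against 111 and 129 CPM in control embryos. Most of that sum was VCAN (57.8 to 82.0 CPM), VIM (27.5 to 54.4 CPM) and COL1A1 (5.79 to 16.3 CPM). Among the granulosa genes AMH had 0 counts in every library and FSHR 1 count in control 2. CYP19A1 had 3 and 12 counts in Bobcat339 embryos against 12 and 16 counts in control embryos. FOXL2 had 1 and 6 counts in Bobcat339 embryos against 0 and 0 counts in control embryos. TNFAIP6, a gene of the expanding cumulus, had 7 and 4 counts in Bobcat339 embryos against 24 and 22 counts in control embryos (unadjusted p = 0.00958, edgeR adjusted p = 0.999). PTX3, from the same list, had 0 and 13 counts in Bobcat339 embryos against 4 and 11 counts in control embryos, so its groups overlapped. The 8 matched blood and immune markers summed to 12.8 and 18.4 CPM in Bobcat339 embryos and to 14.8 CPM in each control library. The control libraries stood further apart than the Bobcat339 libraries: 44.3% of the 18481 tested rows differed by more than 1.5-fold between control 1 and control 2, and 23.7% between Bobcat339 1 and Bobcat339 2. Of the 9 tested members 2 differed that much between the Bobcat339 libraries and 5 between the controls.

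On the per-length scale the network was led by MYC and MXD1. Levels of different genes were compared as FPKM, the authors' deposited value scaled to gene length and depth. MYC, the activator, had 231 and 271 FPKM in Bobcat339 embryos against 251 and 172 FPKM in control embryos. MXD1, a repressor usually associated with cells that stop dividing, had 137 and 147 FPKM in Bobcat339 embryos against 86.9 and 150 FPKM in control embryos. MLX followed with 74.0 to 87.0 FPKM over the 4 libraries, then the shared partner MAX with 14.5 to 24.2 FPKM and MGA with 8.17 to 14.9 FPKM. The remaining 5 genes were low: MXI1 at 1.64 to 3.16 FPKM, MXD3 at 0.916 to 1.54, MYCN at 0.668 to 1.18, MNT at 0.564 to 0.733 and MYCL at 0.135 to 0.234 FPKM.

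In the order of mean FPKM, the ranges of neighbours over the 4 libraries overlapped between MXD1 and MLX, between MAX and MGA, between MXD3 and MYCN and between MYCN and MNT, so these pairs are not ordered beyond their spread. The other neighbours had separate ranges. MXD1 nevertheless exceeded MLX within each of the 4 libraries. The first place of MYC rests on length: MXD1 had more reads (7122 to 11826 counts a library, against 3242 to 5006 for MYC), and the length behind the FPKM is 1359 bases for MYC and 5693 bases for MXD1. The length of 1359 bases is a multiple of 3 in a gene that spans 4114 bases in the table, so it may be a coding length without UTRs. The lengths for MXD3 (2007 bases) and MXI1 (3822 bases) are also multiples of 3, so this trait alone does not settle it. If it is a coding length, the FPKM of MYC would be too high beside the other genes. The table's own length column gives MYC the same 1359 bases and so cannot test its place. With that column, an alternative chosen after seeing the data, MYCN moved ahead of MXD3, from place 8 to place 7, and the other 8 genes kept their places.

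**Figure D1:**
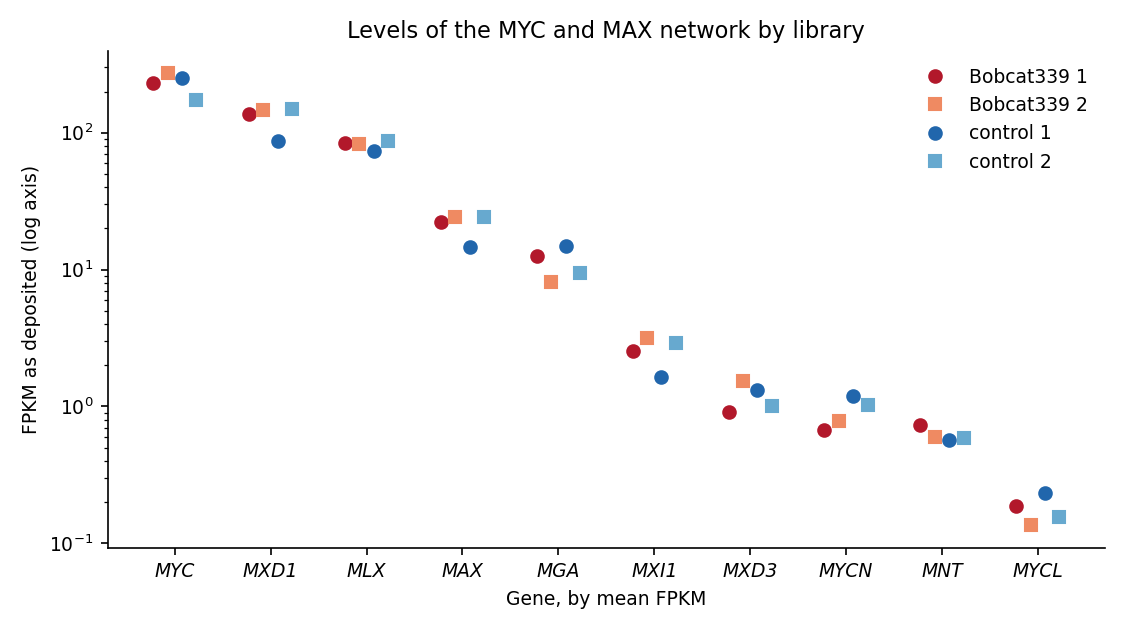
FPKM as deposited (log axis) of the 10 genes in each of the 4 libraries, ordered by mean; red and orange symbols are Bobcat339 embryos, blue symbols control embryos. MYC lies at 172 to 271 FPKM and MYCL at 0.135 to 0.234 FPKM, and control 1 is the lowest library for MXD1, MAX and MXI1.

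Within each branch 1 gene made up most of the signal, and in the MYC branch nearly all of it. MYC gave 99.6% and 99.7% of the summed FPKM of MYC, MYCN and MYCL in Bobcat339 embryos, against 99.4% and 99.3% in control embryos. MXD1 gave 89.1% and 91.6% of the summed FPKM of MXD1, MXD3, MXI1, MNT and MGA in Bobcat339 embryos, against 82.5% and 91.5% in control embryos. MAX was below both. In FPKM the ratio of MYC to MAX was 10.5 and 11.2 in Bobcat339 embryos against 17.3 and 7.14 in control embryos. This ratio carries the same doubt about the length of MYC and depends on the length used for MAX. In CPM, with no length, it was 1.81 and 1.94 in Bobcat339 embryos against 3.00 and 1.24 in control embryos. The table assigns 103 rows to the bHLH family of transcription factors, 9 of them members, since MGA is filed under T-box. By mean FPKM over the 4 libraries, and with MYC divided by 1359 bases, MYC was first among the 103, MXD1 the second, MLX the fourth and MAX the seventh, with the inhibitory factor ID3 (112 FPKM), the circadian factor CLOCK (45.6 FPKM) and the repressor HEY1 (22.9 FPKM) among them. MYCL stood at place 72.

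**Figure D2:**
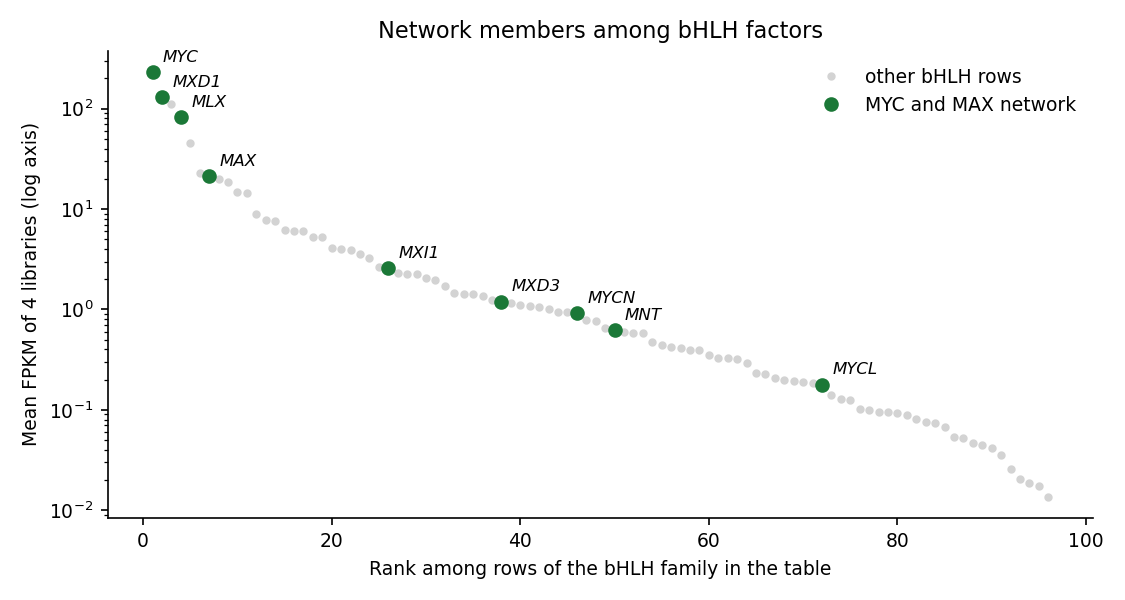
Mean FPKM over the 4 libraries (log axis) against rank for the rows of the bHLH family with a count, with the 9 network members of that family in green. MYC, MXD1, MLX and MAX stand at places 1, 2, 4 and 7, and MXI1, MXD3, MYCN, MNT and MYCL between places 26 and 72.

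The comparison of Bobcat339 with control embryos asks whether the TET inhibitor changed the network's transcripts. No member passed edgeR's quasi-likelihood test: 0 of the 9 members tested reached an adjusted p of 0.05, beside 0% of the 18481 rows tested. At an unadjusted p under 0.05 there were 0 members, against 4.00% of all rows. DESeq2 called 0 of the 10 members (0.0167% of all rows) and limma-voom 0 of 9 (0% of all rows), and neither gave a member an unadjusted p under 0.05. Log2 fold changes of Bobcat339 over control lay above 0 for 7 of the 9 members, with a median of 0.19, beside 8700 of 18481 rows above 0 and a median of −0.024 over all rows. That count depended on the controls: 4 of 9 members were above 0 without control 1 and 5 of 10 without control 2. The edgeR adjusted p was 0.999 for each of the 9 members. MYCL had too few reads to be tested in this fit.

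Among the activators, MYC (ENSSSCG00000005965, chromosome 4: 12455656 to 12459769, minus strand) had 314 and 365 CPM in Bobcat339 embryos against 352 and 232 CPM in control embryos. Control 2 was the low library and the groups overlapped. The log2 fold change was 0.22 (SE 0.27; 95% interval −0.35 to 0.78). Its sign turned on which control was used: −0.024 without control 2, and 0.55 without control 1, where the edgeR adjusted p was 0.0620 in a fit that called 2.92% of rows.

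MYCN (ENSSSCG00000008618, chromosome 3: 121542275 to 121549491, minus strand) is the paralogue known from neural and early embryonic tissue. It had 38 and 41 counts in Bobcat339 embryos against 66 and 55 counts in control embryos, or 2.59 and 2.99 CPM in Bobcat339 embryos against 4.73 and 3.94 CPM in control embryos. Both Bobcat339 libraries lay below both controls, as they did at 16.0% of all rows in that direction, and this held with DESeq2 size factors and with no scaling. The log2 fold change of −0.64 was the furthest from 0 of the 9 and had the smallest p among them (SE 0.44; 95% interval −1.56 to 0.29; unadjusted p = 0.165; edgeR adjusted p = 0.999). It stayed between −0.73 and −0.50 with any 1 library left out. The counts are small, and the exact Poisson intervals of the 2 groups overlapped (29.4 to 55.6 counts in Bobcat339 2 and 41.4 to 71.6 in control 2). The MYCN row shares 1631 bases with an unnamed row on the other strand and 172 bases with one on the same strand. Both unnamed rows had 0 counts. Whether MYCN reads in the shared bases went uncounted was not tested.

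MYCL (ENSSSCG00000039761, chromosome 6: 95696089 to 95702648, minus strand), the third family member, was close to absent, with 9 and 6 counts in Bobcat339 embryos against 11 and 7 counts in control embryos. The values overlapped, and the exact Poisson interval of the lowest, 6 counts, ran from 2.20 to 13.1. With no filter on low counts its log2 fold change was −0.25 (SE 0.77; edgeR adjusted p = 1).

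MAX (ENSSSCG00000037267, chromosome 7: 89136985 to 89168200, minus strand), the partner that the activators and most of the repressors need in order to bind DNA, had 174 and 188 CPM in Bobcat339 embryos against 117 and 188 CPM in control embryos. Control 1 stood alone below the other 3 libraries, and the groups overlapped. On the log2 scale the fold change was 0.24 (SE 0.28; 95% interval −0.36 to 0.84). It was −0.056 without control 1 and 0.65 without control 2 (edgeR adjusted p = 0.105).

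Among the repressors, MXD1 (ENSSSCG00000008334, chromosome 3: 72517837 to 72545288, minus strand) had 780 and 830 CPM in Bobcat339 embryos against 510 and 847 CPM in control embryos. Here too control 1 was the low library, and control 2 was above both Bobcat339 libraries. On the log2 scale MXD1 differed by 0.25 (SE 0.26; 95% interval −0.31 to 0.80). Without control 1 it was −0.073. Without control 2 it was 0.69 and MXD1 passed (edgeR adjusted p = 0.0270), in a fit that called 2.47% of rows and assumes that the 1 remaining control varies as the Bobcat339 pair did. No other member passed under any alternative run. The MXD1 row shares 296 bases with an unnamed row on the same strand, which had 0 counts. Whether MXD1 reads in the shared bases went uncounted was not tested.

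MXI1 (ENSSSCG00000022128, chromosome 14: 120603191 to 120722627, plus strand), a close relative of MXD1, had 9.74 and 11.9 CPM in Bobcat339 embryos against 6.45 and 11.1 CPM in control embryos. Control 1 was again lowest, and the groups overlapped. Its log2 fold change was 0.31 (SE 0.38; 95% interval −0.49 to 1.10), and it was −0.034 without control 1 and 0.78 without control 2. MXD3 (ENSSSCG00000014041, chromosome 2: 80636983 to 80641950, plus strand), described in mouse as a family member of cells in S phase, had 27 and 42 counts in Bobcat339 embryos against 38 and 28 counts in control embryos. The groups were interleaved and the log2 fold change was 0.049 (SE 0.51; 95% interval −1.03 to 1.12), running from −0.31 without Bobcat339 2 to 0.36 without Bobcat339 1. The 3′ part of MXD3 overlaps PRELID1, on the other strand and with 6448 counts in all against 135 for MXD3, by 95 bases. The libraries do not mark strand, so reads there cannot be assigned.

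MNT (ENSSSCG00000037159, chromosome 12: 48469239 to 48486728, minus strand), the MAX partner found in most tissues, had 53 and 40 counts in Bobcat339 embryos against 40 counts in each control. After scaling to library size these were 3.61 and 2.91 CPM in Bobcat339 embryos against 2.87 and 2.86 CPM in control embryos. Both Bobcat339 libraries thus lay above both controls, as at 13.3% of all rows, although 3 of the 4 libraries had the same count. The log2 fold change was 0.19 (SE 0.45; 95% interval −0.77 to 1.15), and it was 0.018 without Bobcat339 1 and 0.38 without Bobcat339 2.

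MGA (ENSSSCG00000004739, chromosome 1: 129594990 to 129697417, minus strand) had 120 and 76.7 CPM in Bobcat339 embryos against 146 and 89.3 CPM in control embryos. In each group library 1 was well above library 2, by 1.56-fold in Bobcat339 embryos and 1.63-fold in control embryos, so the groups overlapped. On the log2 scale MGA differed by −0.26 (SE 0.32; 95% interval −0.93 to 0.41). It was 0.074 without Bobcat339 2, 0.14 without control 1, −0.53 without control 2 and −0.62 without Bobcat339 1. The MGA row shares 186 bases with an unnamed row on the other strand, which had 1 count in all.

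MLX (ENSSSCG00000017397, chromosome 12: 20249761 to 20257482, minus strand) was the steadiest of the abundant members, with 162 and 157 CPM in Bobcat339 embryos against 147 and 166 CPM in control embryos. Its highest library was 1.13-fold above its lowest, and the groups overlapped. The log2 fold change was 0.024 (SE 0.26; 95% interval −0.53 to 0.58), with −0.062 without control 1, −0.0077 without Bobcat339 1 and 0.15 without control 2. Its row shares 373 bases with PSMC3IP on the other strand.

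**Figure D3:**
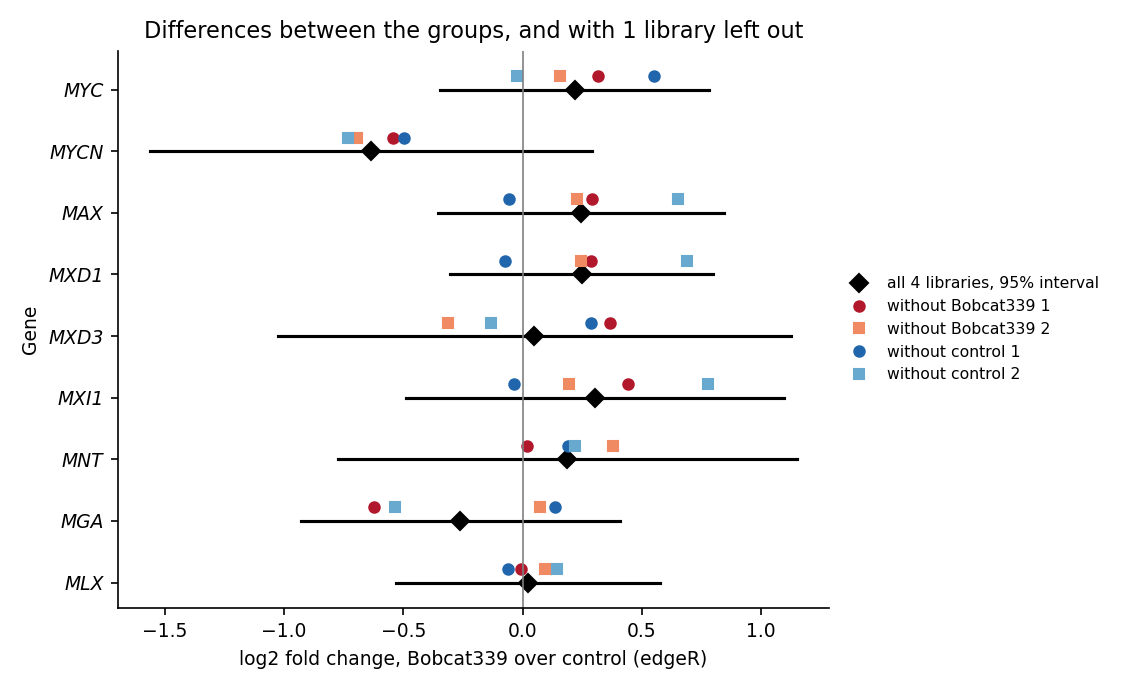
Log2 fold change of Bobcat339 over control embryos for the 9 tested members (black diamonds, edgeR on all 4 libraries, with 95% intervals), and the same value with 1 library left out (coloured symbols). Every black interval crosses 0; the values for MAX, MXD1 and MXI1 lie just below 0 without control 1 and at 0.65 to 0.78 without control 2.

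For MYC, MAX, MXD1, MXD3, MXI1, MLX and MGA the 2 controls lay further apart than the groups did, but not for MYCN and MNT. MAX, MXD1 and MXI1 were all lower in control 1 than in control 2, by 0.68, 0.73 and 0.78 on the log2 scale, while the Bobcat339 libraries differed from each other by 0.11, 0.089 and 0.29. MYC and MGA went the other way, with control 1 above control 2 by 0.60 and 0.71. As a result the ratio of MYC to MXD1 in FPKM was 1.69 and 1.84 in Bobcat339 embryos against 2.89 in control 1 and 1.15 in control 2. In CPM, with no length, it was 0.403 and 0.439 in Bobcat339 embryos against 0.690 in control 1 and 0.274 in control 2. By reads MXD1 thus exceeded MYC in each library. The summed FPKM of the MYC family over that of the repressors was 1.51 and 1.69 in Bobcat339 embryos against 2.40 and 1.06 in control embryos. Both FPKM ratios carry the doubt about the length of MYC and depend on the lengths used for MXD1 and the other repressors. For each ratio, both Bobcat339 values lay between the 2 control values. Control 1 was the lowest library for 4 of the 9 tested members (MAX, MXD1, MXI1 and MLX), beside 31.0% of all tested rows, and the same library was lowest for these genes with DESeq2 size factors and with no scaling.

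MAX and MXD1 followed each other closely from library to library. The ratio of MXD1 to MAX in FPKM was 6.20 and 6.10 in Bobcat339 embryos against 5.99 and 6.22 in control embryos, although each gene differed more than 1.5-fold between the controls. Taken as log2 CPM minus each gene's mean, the 4 values of the 2 genes differed by a root mean square of 0.0215, and 6 of 10833 other rows with a mean of at least 5 CPM (0.0554%) were nearer to MAX than MXD1 was. For MXI1 the distance was 0.0826, with 2.96% of rows nearer, and for MLX it was 0.225, with 26.6% nearer. This comparison was chosen after the values were seen and rests on 4 libraries, and it carries no test. The genes nearest to MYC on the same measure, of 7827 named candidates, were the cholesterol transporter NPC1 (0.00955), RILPL2 (0.0133) and the protease inhibitor TIMP4 (0.0178).

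**Figure D4:**
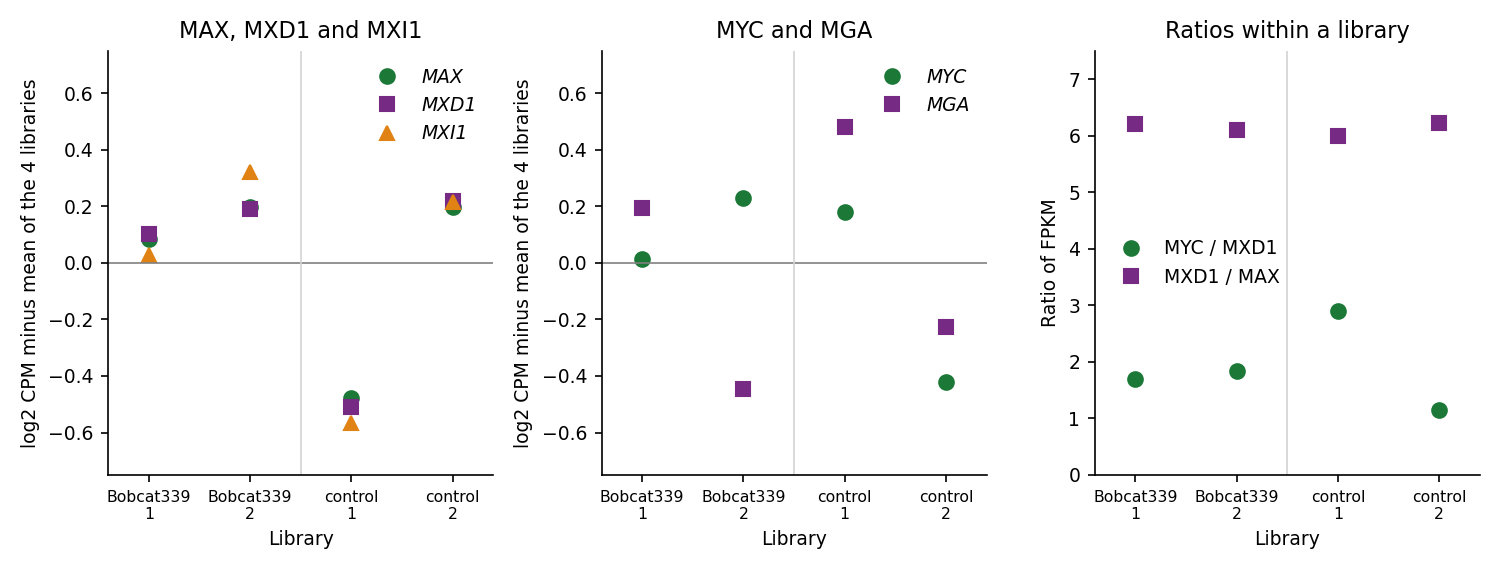
Left and middle, deviation in log2 CPM from each gene's own mean for MAX, MXD1 and MXI1 and for MYC and MGA; right, ratios of FPKM within a library, with Bobcat339 libraries left of control libraries in each panel. MAX, MXD1 and MXI1 drop together in control 1, the ratio of MXD1 to MAX stays between 5.99 and 6.22, and the ratio of MYC to MXD1 spans 1.15 to 2.89, both ends in control embryos.

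Control 1 was the lowest library for 4 of the 10 matched oocyte and embryo markers and the highest for 2, beside 31.0% and 32.7% of all tested rows. The markers whose values run most like the members' were chosen after they were seen. Control 1 was lowest for BTG4, an adaptor for the removal of maternal mRNA, at 1251 and 1210 CPM in Bobcat339 embryos against 744 and 1297 CPM in control embryos. It was highest for KLF17, a transcription factor of early human embryos, at 1150 and 1191 CPM in Bobcat339 embryos against 1418 and 987 CPM in control embryos. The 10 matched oocyte and embryo markers together summed to 11641 and 13256 CPM in Bobcat339 embryos against 11385 and 13029.5 CPM in control embryos. The part of these differences between libraries in the values of MAX, MXD1 and MYC was not tested. In whole embryos, fewer cells with a transcript and less of it per cell cannot be told apart.

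Genes described as activated by MYC, in growth, ribosome assembly and nucleotide synthesis, did not pass: 0 of 38 tested (of 42 listed), with 15 log2 fold changes above 0, 23 below and a median of −0.16. The helicase EIF4A1, a translation factor, had 981 and 1095 CPM in Bobcat339 embryos against 1226 and 805 CPM in control embryos (log2 fold change 0.032), and the nucleolar protein NPM1 had a log2 fold change of 0.15. The median depended on the control used, and control 1 had the highest summed level of the list: 6157 and 5896 CPM in Bobcat339 embryos against 7122 and 4812 CPM in control embryos. Without control 1 the median was 0.22 and without control 2 it was −0.22. Control 1 was the highest library for 24 of the 38 genes, beside 32.7% of all rows. The transferrin receptor TFRC had the smallest p of the list, with 65.7 and 52.7 CPM in Bobcat339 embryos against 184 and 90.0 CPM in control embryos. Both Bobcat339 libraries were below both controls, as for 7 of the 38 genes and 16.0% of all rows. The log2 fold change of TFRC was −1.21 (SE 0.33; edgeR unadjusted p = 0.00216; edgeR adjusted p = 0.789). At an unadjusted p under 0.05 the list held 3 genes, all lower: TFRC, the telomerase subunit TERT (−2.17) and the purine enzyme GART (−0.82), the last 2 named after their values were seen. Over all rows 2.64% were lower and 1.36% higher at that threshold. TERT had 7 counts in each Bobcat339 library against 52 counts in control 1 and 11 in control 2, so its value came mostly from control 1.

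Of the genes described as repressed by MYC, which include cell cycle inhibitors, stress genes and matrix genes, 0 of 9 tested (of 12 listed) passed, with 7 log2 fold changes above 0 and a median of 0.44. The cyclin-dependent kinase inhibitor CDKN2B had 48.4 and 51.4 CPM in Bobcat339 embryos against 27.4 and 46.0 CPM in control embryos (log2 fold change 0.44, SE 0.33; edgeR adjusted p = 0.999). GADD45A, a stress gene also linked to DNA demethylation, had 13.6 and 52.5 CPM in Bobcat339 embryos against 11.7 and 21.8 CPM in control embryos (log2 fold change 0.98, SE 0.48; edgeR adjusted p = 0.999), so the high value came from Bobcat339 2 alone. The median of the list was −0.044 without Bobcat339 2, 0.12 without control 1, 0.72 without Bobcat339 1 and 0.89 without control 2. The glucose-response genes of MLX and its partners also gave 0 calls among 6 tested (of 7 listed), with a median of −0.090, which was 0.026 without control 1, −0.019 without control 2 and −0.29 without Bobcat339 2. KLF10 had 471 and 448 CPM in Bobcat339 embryos against 467 and 294 CPM in control embryos (log2 fold change 0.27), and ACACA, a rate-limiting enzyme of fatty acid synthesis, had a log2 fold change of −0.068.

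None of the cofactors of the network passed, and their levels varied widely, with mean levels of 9.13 to 765 CPM among the coactivators and of 2.26 to 1137 CPM among the SIN3 genes. Among MYC coactivators and partners 0 of 19 tested (of 20 listed) were called, with 6 log2 fold changes above 0, 13 below and a median of −0.19, which was 0.058 without control 1. HCFC1, a host cell factor that binds MYC, had 690 and 727 CPM in Bobcat339 embryos against 793 and 852 CPM in control embryos, and SMARCB1, a SWI/SNF subunit, 62.3 and 58.4 CPM in Bobcat339 embryos against 81.8 and 73.3 CPM in control embryos, so in both genes the Bobcat339 libraries lay below the controls (log2 fold changes −0.22 and −0.36, edgeR adjusted p = 0.999 each). These were the only 2 of the 19 whose groups did not overlap, beside 16.0% of all rows with Bobcat339 lower. PAF1, of the elongation complex of that name, overlapped between the groups (0.10). Of the 15 SIN3 corepressor genes, all tested, 8 were above 0 and 7 below, with a median of 0.00040. SIN3A, the scaffold that MXD proteins and MNT bind, had 1221 and 1138 CPM in Bobcat339 embryos against 927 and 1261 CPM in control embryos (0.11). SUDS3, a subunit of the same complex, had a log2 fold change of 0.00040 and the deacetylase HDAC1 of 0.34.

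The subunits that join MGA in its Polycomb complex gave 0 calls among 13 tested (of 13 listed), with 5 above 0, 8 below and a median of −0.11. The ubiquitin ligase RNF2 had 187 and 203 CPM in Bobcat339 embryos against 144 and 228 CPM in control embryos (0.066), PCGF6 a log2 fold change of −0.11 and TFDP1 of −0.79. TFDP1 had 11.1 and 6.48 CPM in Bobcat339 embryos against 20.3 CPM in control 1, its highest library, and 10.17 CPM in control 2. Genes for the phosphorylation and turnover of MYC protein gave 0 calls among 21 tested (of 22 listed), with 11 above 0, 10 below and a median of 0.027, which was −0.024 without Bobcat339 1 and −0.090 without control 2. The kinase AURKA, which protects MYCN from degradation, stood at 719 and 751 CPM in Bobcat339 embryos against 748 and 695 CPM in control embryos (0.027), the phosphatase subunit PPP2CA had a log2 fold change of 0.081 and the kinase GSK3A of −0.45. The other E-box factors gave 0 calls among 8 tested (of 11 listed), with a median of −0.073 whose sign was not stable. It was 0.18 with DESeq2 and 0.16 with no filter, both over all 4 libraries. Both fits also hold MXD4, TFAP4 and SREBF1, which had too few reads for the main fit. Over the same 8 genes as the main fit it was −0.049 with limma-voom and −0.054 with DESeq2 size factors. Without Bobcat339 1, without control 1 or without control 2, where the filter was applied anew, it was between 0.11 and 0.23. MLXIP, the glucose-responsive partner of MLX, had 24.9 and 34.1 CPM in Bobcat339 embryos against 26.1 and 38.7 CPM in control embryos (−0.14), and TFE3 a log2 fold change of −0.24. For comparison, the 53 tested bHLH rows outside the network also gave 0 calls, with 27 above 0 and a median of 0.096. At an unadjusted p under 0.05 the edgeR test held 1 gene each, all higher and named here after their values were seen, among the MYC-repressed genes (GADD45G, log2 fold change 1.96), the glucose-response genes (PFKFB3, 1.12) and the other E-box factors (TFEB, 1.17), with 0 in the coactivator, SIN3, Polycomb and turnover lists. These counts of 1 of 9, 1 of 6, 1 of 8 and 0 stand beside 4.00% of all rows, 1.36% higher and 2.64% lower.

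**Figure D5:**
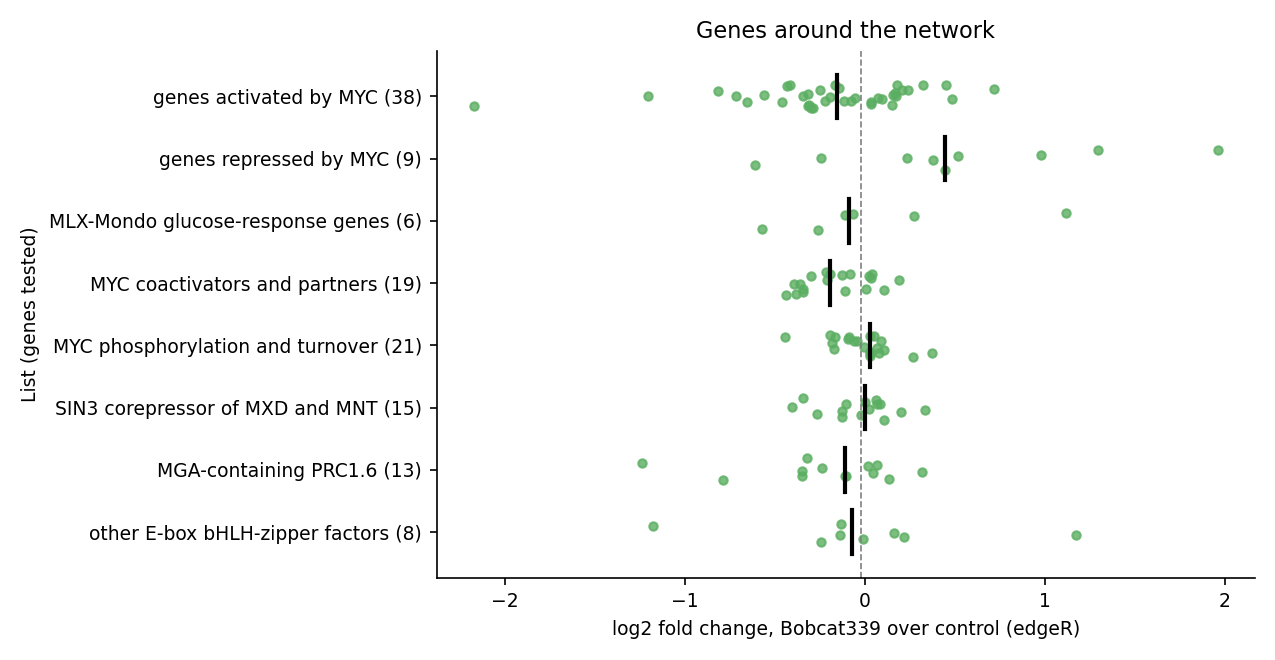
Log2 fold change of Bobcat339 over control embryos for each tested gene of the 8 lists around the network (green points, spread vertically at random), with the median of each list (black bar) and of all 18481 rows (dashed line, −0.024). The numbers of genes tested stand in brackets; no point passed an adjusted p of 0.05, and list medians run from −0.19 to 0.44.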

How the data were processed

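The authors deposited raw read counts and FPKM per gene, per the file headers. Upstream software is listed with no roles, per the submitters' processing notes: HISAT2 2.0.5, Trimmomatic, DESeq2 1.16.1 and HTSeq. The same notes name the build Sscrofa10.2. Table coordinates are printed as given: the rows of all 10 members overlap the RefSeq gene of that name in Sscrofa11.1, so they follow that assembly. Dividing counts by the deposited FPKM gave for each member 1 length in all libraries, not always the length column. Library preparation was Smart-seq2, per the labels, which has no molecular identifiers and marks no strand.

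Counts of all rows were tested in R 4.3.3 by edgeR 4.0.16 (TMM scaling, filterByExpr at 10 counts, glmQLFTest), with Benjamini-Hochberg adjustment over the 18481 rows left of 35248. CPM are TMM-normalised. The procedure was checked on simulated data with the same spread in both groups. That check does not cover a control pair that stands further apart than the Bobcat339 pair. Alternatives were DESeq2 1.42.0, limma-voom (limma 3.58.1), other scalings and filters, the replicate number as a block and each library left out. Members and gene lists were chosen with earlier results of these data known. List genes were named by 1 rule: those that pass, otherwise the 2 with the highest mean and the one with the smallest p at a mean of at least 5 CPM. Unnamed rows were matched by identifier. List genes with no match were not analysed here. Counts of the 2 Bobcat339 libraries, and of the 2 control libraries, differed by more than sampling noise (chi-square per gene 12.8 and 48.9). Neither pair was thus 1 library entered 2 times, and each library counted as 1 sample. This check cannot tell separate cultures from technical repeats.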

Additional observations from a re-analysis of the deposited data

How the results depend on the processing

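With DESeq2 5 rows were called, with the replicate block 44, and with 1 library left out 0 to 586 (586 without control 1, 494 without control 2), against 0 otherwise. The number of members called was 0 in all alternatives with 4 libraries, block included, and 0 to 1 with a library left out (MXD1, without control 2). The groups share replicate numbers, but whether libraries of the same number belong together is not stated. Across 10839 genes the difference of library 1 from library 2 in the Bobcat339 pair correlated with that in the control pair at r = 0.295. This is a hint of a tie between libraries of the same number, which the main fit leaves out. Its source was not tested. No other scaling, filter, tool or block turned the sign of a tested member. With 1 library left out, log2 fold changes ran from −0.024 to 0.55 for MYC, −0.056 to 0.65 for MAX, −0.073 to 0.69 for MXD1, −0.31 to 0.36 for MXD3, −0.034 to 0.78 for MXI1, −0.062 to 0.15 for MLX and −0.62 to 0.14 for MGA, while MYCN and MNT kept their sign. The cause was not tested. A filter of at least 5 CPM in 2 libraries left 6 of the 10 members. Of 88 list medians recomputed, 18 moved by more than the spread between replicates. With all 4 libraries in the fit these were the other E-box factors, whose median turned to 0.18 with DESeq2 and 0.16 with no filter, and the SIN3 genes, whose median stayed at or below 0.047 in every alternative. Both of those E-box medians took in low-count genes left out of the main fit. Low counts limit MYCN, MYCL, MXD3 and MNT.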
